A study of Mus musculus with 8 samples.

Results

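The genes described here take iron into cells, store it, export it, sense it, or build heme from it: Tfrc, Slc11a2, Fth1, Ftl1, Slc40a1, Hamp, Ireb2, Alas1, Cpox and Fech. They were chosen by name, for their roles, with earlier results of these data known. All 10 were found among the 55383 genes of the deposited table. The RNA came from whole hearts of 5-week-old mice on an inbred C57BL/6N nuclear background, and the study asked what the loss of mtSSB, the mitochondrial single-stranded DNA binding protein encoded by Ssbp1, does to the heart. Here 2 control hearts (genotype Ssbp1+/+ in the labels, L/L in the study) were compared with 2 knockout hearts (Ssbp1-/- in the labels, L/L, cre in the study). By the study's account both groups carried loxP sites around exon 3 of Ssbp1, and the knockouts also carried a Cre recombinase under the muscle creatine kinase promoter (Ckmm-cre), which is active in cardiomyocytes and skeletal muscle, so the other cells of a knockout heart kept the gene. The labels describe the Cre cross for all mice and do not say which mouse carried Cre. For 2 further mice the title and the genotype field contradict each other, and they entered no comparison.

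Iron enters most cells bound to transferrin, through the transferrin receptor, and crosses the endosomal membrane through a divalent metal transporter. What is not used is kept inside shells of heavy and light ferritin chains or leaves through ferroportin, the exporter that the liver hormone hepcidin removes from the cell surface. Heart muscle needs much of its iron in mitochondria, where the first and the last steps of heme synthesis take place and iron-sulfur clusters are made.

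Cells with little iron protect or silence these mRNAs through iron regulatory proteins, which bind a short hairpin, the iron-responsive element. Binding in a 3′ untranslated region (UTR) stabilises an mRNA, and binding in a 5′ UTR blocks its translation and leaves its amount largely alone. A search of the annotated mouse transcripts (sense strand, GENCODE vM21 on GRCm38) for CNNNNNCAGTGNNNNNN, in which the 5 bases before the loop CAGTGN pair with the 5 after it (G-T pairs allowed), found the element in 0.134% of genes with a 5′ UTR and in 0.586% of genes with a 3′ UTR. It found 4 copies in the 3′ UTR of Tfrc and 1 each in the 5′ UTRs of Fth1, Ftl1 and Slc40a1. These 7 matches lie in genes of uptake, storage and export, and elements that depart from the searched pattern would be missed. They are printed 5′ to 3′ with the loop in capitals and 5 bases of context on either side.
Tfrc, chr16:32631220-32631246, plus strand, 892 bases after the coding sequence: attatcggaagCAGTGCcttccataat
Tfrc, chr16:32631599-32631625, plus strand, 1271 bases after it: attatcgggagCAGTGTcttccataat
Tfrc, chr16:32631664-32631690, plus strand, 1336 bases after it: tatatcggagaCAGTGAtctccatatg
Tfrc, chr16:32631711-32631737, plus strand, 1383 bases after it: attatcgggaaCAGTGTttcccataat
Fth1, chr19:9982733-9982759, plus strand, 132 bases before the coding sequence: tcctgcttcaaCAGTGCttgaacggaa
Ftl1, chr7:45459780-45459806, minus strand, 170 bases before it: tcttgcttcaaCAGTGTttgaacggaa
Slc40a1, chr1:45925466-45925492, minus strand, 224 bases before it: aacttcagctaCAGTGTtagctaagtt
The same search also found an element 37 bases before the coding sequence of Alas2, the first enzyme of heme synthesis in red cell precursors: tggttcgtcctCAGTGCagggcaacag (chrX:150547459-150547485, plus strand). It found none in Slc11a2, Ireb2, Alas1, Cpox or Hamp. A match is a stretch of letters. A missing match says only that no stretch with both these letters and all 5 pairs was in the UTRs of the protein-coding transcripts searched.

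The 4 libraries held 19716305 to 25682093 reads assigned to genes, as recovered from the deposited values. Of these, 62.7% and 66.7% in controls and 58.0% and 56.2% in knockouts came from mitochondrial genes. All values are normalized counts, that is, reads per gene divided by a size factor for the library, with 1 read worth 0.765 to 1.35. Ssbp1 itself stood at 177 and 216 normalized counts in the controls and at 169.7 and 163 in the knockouts (log2 fold change -0.23, SE 0.16). Its limma adjusted p was 0.890. The groups did not overlap, with the knockouts lower, which also held for 17.5% of all genes tested. A count over the whole gene does not separate transcripts with exon 3 from those without it. Cardiomyocyte markers were high in every library (Myh6 between 301439 and 324507), the atrial markers Myl7 and Sln were at 0 to 1.53, and atrial Nppa was at 449 to 1102, so little atrial RNA was seen in hearts labelled as whole. In bulk RNA, fewer cells of a type and less RNA per cell cannot be told apart.

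Of the 10 genes, Tfrc, Alas1 and Slc40a1 had lower values in both knockout hearts than in both controls, and Ftl1 was slightly higher in both. Fth1, Ireb2, Slc11a2, Fech and Cpox overlapped between the groups, as did Hamp, which had few reads. All 10 genes passed the filter on low values, and limma called 0 of them at an adjusted p of 0.05, where it called 0.117% of the 14522 genes tested (17 genes). At an unadjusted p of 0.05 limma picked 2 of the 10, both lower, beside 3.02% of all genes lower and 3.08% higher. edgeR called 0 of the 10 on reads that were recovered from the deposited values, beside 0.131% of all genes. DESeq2 on the same reads called 2 of the 9 to which it gave an adjusted p (Hamp had none), Tfrc and Alas1, both lower, beside 0.151% of the genes to which it gave an adjusted p called lower. The groups did not overlap, with the knockouts lower, in 3 of the 10 (Tfrc, Slc40a1 and Alas1), beside 17.5% of all genes, and with the knockouts higher in 1 (Ftl1), beside 18.1%. The median log2 fold change was -0.06 over the 10 and 0.00 over all genes tested.

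**Figure D1:**
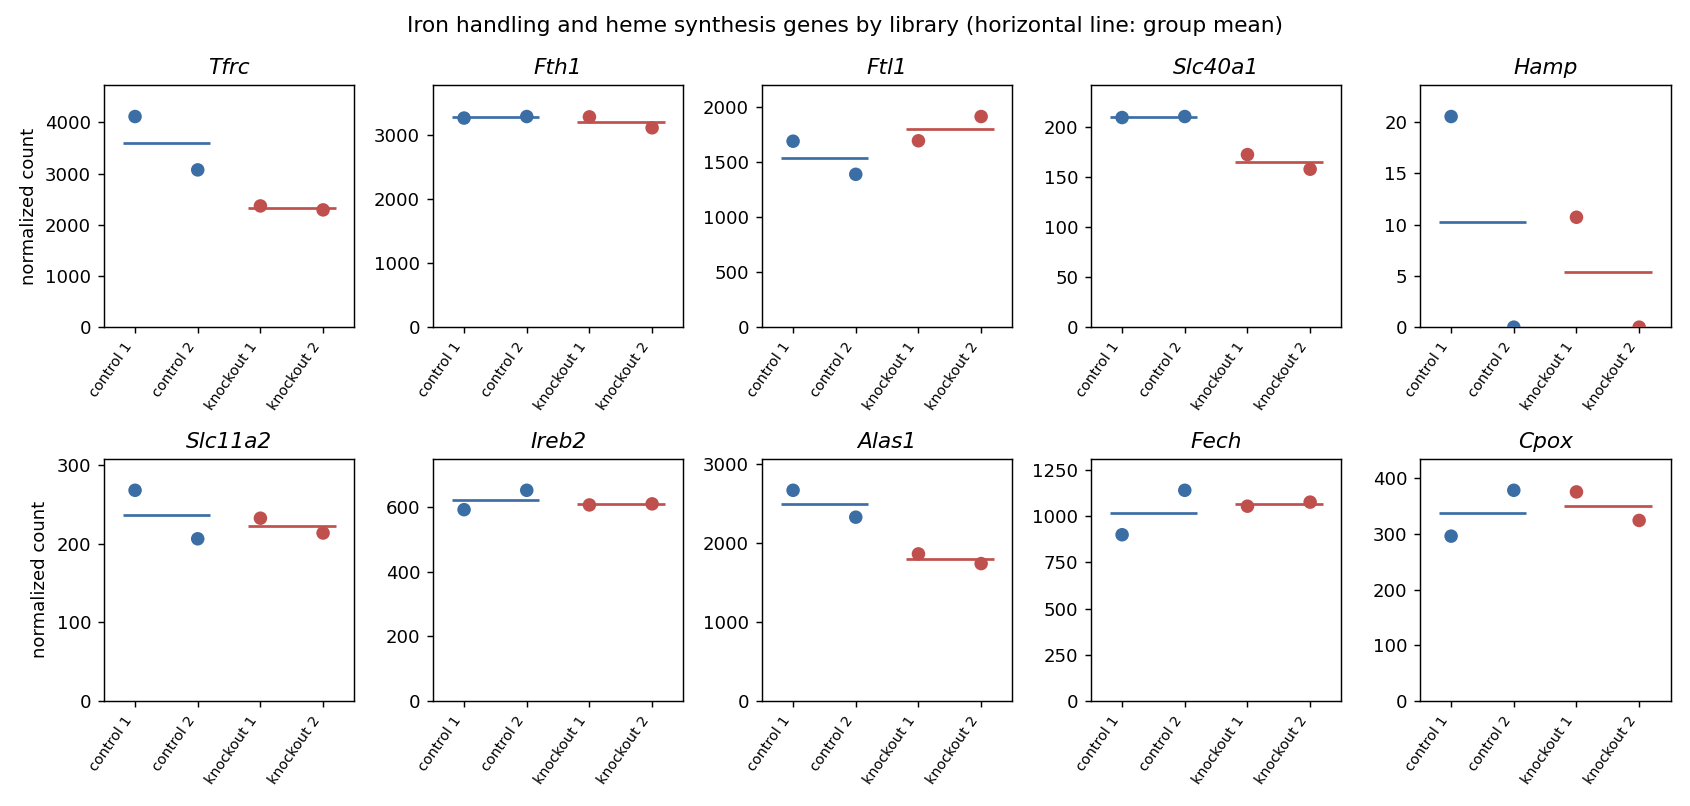
Normalized count (vertical axes, each from 0) of the 10 genes in the 2 control (blue) and 2 knockout (red) libraries, with the group mean as a line. Tfrc, Alas1 and Slc40a1 are lower in both knockouts than in both controls, Ftl1 is higher, and the groups overlap for the other 6 genes.

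Tfrc encodes the transferrin receptor, through which cells take up transferrin-bound iron (chromosome 16, 32608920 to 32632794, plus strand). It stood at 4114 and 3072 normalized counts in the controls and at 2368 and 2290 in the knockouts. Both knockouts lay below both controls, and the controls differed from each other by more than the knockouts did. The mean was 3593 ± 737 (SD, n = 2) in controls and 2329 ± 54.5 (SD, n = 2) in knockouts. The log2 fold change was -0.61 (SE 0.14, 95% interval -0.96 to -0.26), a fold of 0.655, with a limma p of 0.00505 before adjustment and 0.577 after. The adjusted p was 0.592 in edgeR and 0.00377 in DESeq2, so the call rests on the tool. Control replicate 1 held the highest value, and without it the log2 fold change was -0.40, compared with -0.82 without control replicate 2.

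Slc11a2 encodes DMT1, the divalent metal transporter that moves iron out of the endosome after uptake (chromosome 15, 100387898 to 100425072, minus strand). It stood at 268 and 206 normalized counts in the controls and at 232 and 213 in the knockouts. Both knockouts lay between the controls (log2 fold change -0.08, 95% interval -0.50 to 0.34, limma adjusted p 0.968).

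Of the 10 other uptake genes listed, 5 passed the filter, and limma, edgeR and DESeq2 called 0. Of the 5, 1 had an unadjusted limma p under 0.05 (lower), beside 3.02% of all genes lower. Steap3, an endosomal ferric reductase that works beside the transferrin receptor, stood at 271 and 239.8 normalized counts in the controls and at 207 and 169.8 in the knockouts. Both knockouts were lower (log2 fold change -0.44, SE 0.16, limma p 0.0344, adjusted p 0.798). Slc39a14, a transporter of iron not bound to transferrin, stood at 876 and 857 in the controls and at 802 and 733 in the knockouts (log2 fold change -0.18, SE 0.10). Steap2, another reductase of that family, was near the filter, at 13.7 and 12.1 in controls and 14.8 and 22.2 in knockouts. Transferrin itself (Trf), a major product of hepatocytes, varied more between libraries of a group than between groups, at 1042 and 219.6 in controls and 851 and 313 in knockouts.

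Fth1 encodes the heavy ferritin chain, which oxidises iron as it enters the shell (chromosome 19, 9980598 to 9985098, plus strand). It stood at 3259 and 3283 normalized counts in the controls and at 3278 and 3108 in the knockouts. The groups overlapped, and the 95% interval of the log2 fold change, -0.23 to 0.16 around -0.04, was the narrowest of the 10.

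Ftl1 encodes the light chain, which helps iron form a mineral core (chromosome 7, 45457944 to 45459884, minus strand). It stood at 1690 and 1389 normalized counts in the controls and at 1694 and 1914 in the knockouts. Knockout replicate 1 exceeded control replicate 1 by a few counts only, so the groups were separate by the smallest of margins. The log2 fold change was 0.23 (95% interval -0.07 to 0.54, limma adjusted p 0.837). Ferritin genes have processed copies whose reads could be split between rows: the copy Ftl1-ps1 held 45.0 and 29.6 normalized counts in controls and 37.9 and 65.0 in knockouts, and Fth-ps2 held 1.95 to 5.36.

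Heavy and light chains assemble into the same shell, so their ratio was taken within each library, where the scaling between libraries cancels. Fth1 reads per Ftl1 read came to 1.93 and 2.36 in the controls and to 1.94 and 1.62 in the knockouts. The groups overlapped (log2 difference of knockouts minus controls -0.27, two-sided exact permutation p 0.667). Tfrc reads per ferritin read (Fth1 and Ftl1 together), a ratio of uptake to storage mRNA, came to 0.831 and 0.657 in the controls and to 0.476 and 0.456 in the knockouts. Both knockouts lay below both controls, at a mean of 0.466 ± 0.0142 (SD, n = 2) compared with 0.744 ± 0.123 (SD, n = 2). The log2 difference was -0.67, and the two-sided exact permutation p of 0.333 is the smallest that 2 libraries against 2 can give, so this test cannot pass 0.05.

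**Figure D2:**
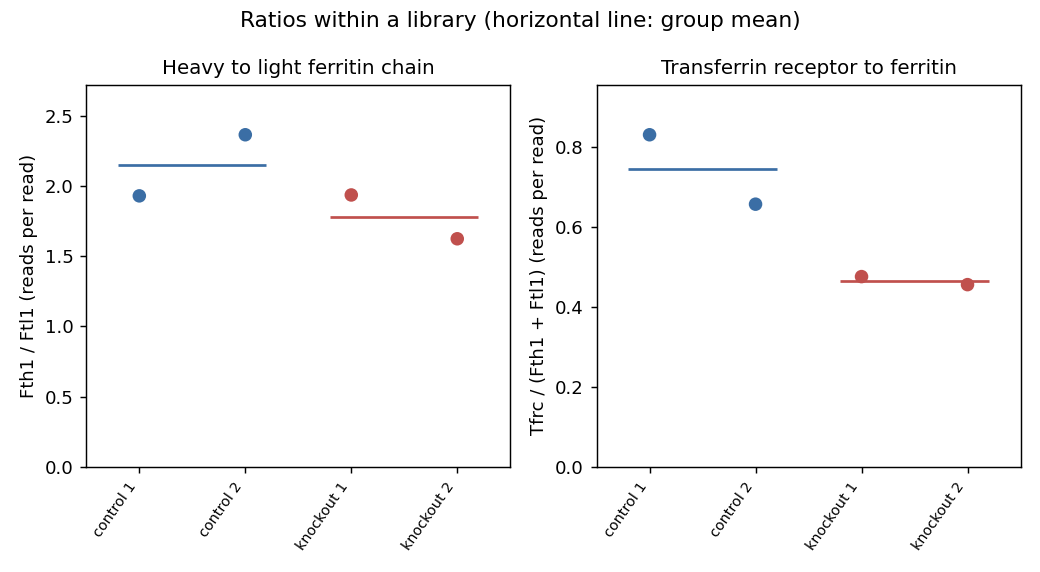
Fth1 reads per Ftl1 read (left) and Tfrc reads per read of Fth1 and Ftl1 together (right) in each control (blue) and knockout (red) library, with the group mean as a line and axes from 0. The left ratio overlaps between the groups, and the right one is 0.657 or more in controls and 0.476 or less in knockouts.

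Of the 4 other genes of iron storage and delivery, 3 passed the filter and limma called 0, with 0 at an unadjusted p of 0.05 and 0 in edgeR and DESeq2. Ncoa4, the receptor that sends ferritin to lysosomes, stood at 857 and 1008 normalized counts in the controls and at 959 and 1069 in the knockouts (log2 fold change 0.12, SE 0.12). Pcbp1, an iron chaperone that loads ferritin, had 237 and 229 in controls and 226 and 280.0 in knockouts, and Pcbp2, its relative, had 427 and 503 compared with 446 and 417. Ftmt, the mitochondrial ferritin gene, had 0 reads in all 4 libraries, which allows up to 3 reads in each.

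Slc40a1 encodes ferroportin, the iron exporter, which in many tissues is most abundant in macrophages (chromosome 1, 45908068 to 45926523, minus strand). It stood at 209 and 210.2 normalized counts in the controls and at 172 and 158 in the knockouts. Both knockouts were lower (log2 fold change -0.35, SE 0.15, 95% interval -0.70 to 0.01, limma p 0.0532 before adjustment and 0.806 after). Of 8 macrophage markers, limma called 0, 4 (Cd68, C1qc, Mrc1 and Lyz2) had both knockouts below both controls, beside 17.5% of all genes, and Adgre1 and Csf1r had log2 fold changes of 0.05 and 0.07. None of the 8 was at 0, and their summed level was 3434 to 4690 in controls and 3362 to 3365 in knockouts. Of 5 fibroblast markers, limma called 0, and 3 (Pdgfra, Dcn and Lum) had both knockouts below both controls, beside 17.5% of all genes. Col1a1 and Col1a2 overlapped between the groups. The summed level of the 5 was 8195 to 8687 in controls and 6870.3 to 7386 in knockouts. Cd163, the macrophage receptor for haptoglobin-bound haemoglobin, stood at 228 and 214 in the controls and at 153 and 187 in the knockouts (log2 fold change -0.38, SE 0.16, limma p 0.0574, adjusted p 0.806). Per 100 reads of the macrophage markers, Slc40a1 had 4.46 and 6.12 reads in controls and 5.12 and 4.68 in knockouts, and these overlapped. The part of macrophage or fibroblast content in the Slc40a1 difference was not tested.

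The copper oxidases that work with ferroportin showed no called change: of 3 genes 2 passed the filter, with 0 calls by limma, edgeR or DESeq2 and 0 at an unadjusted limma p of 0.05. Cp (ceruloplasmin) stood at 845 and 1095 normalized counts in the controls and at 1040.4 and 773 in the knockouts. Heph (hephaestin) had 53.8 and 63.3 in controls and 52.7 and 68.9 in knockouts.

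Hamp encodes hepcidin, the hormone that removes ferroportin from the cell surface (chromosome 7, 30942368 to 30944032, minus strand). It stood at 20.5 and 0 normalized counts in the controls and at 10.7 and 0 in the knockouts, that is, 21 and 0 reads compared with 13 and 0. Each group held 1 library with reads and 1 without, and the log2 fold change of -0.44 had an interval from -5.06 to 4.19. A count of 0 allows up to 3 reads, or 4.04 normalized counts in control replicate 2 and 2.30 in knockout replicate 2. Genes of hepatocytes, the main source of hepcidin, varied in the same order: albumin (Alb) stood at 2875 and 4.04 in the controls and at 1469 and 378 in the knockouts. The 5 hepatocyte markers summed to 8.08 to 4891 in controls and 659 to 2676 in knockouts, with Apob and Serpina1a at 0 in control replicate 2. Per 100 reads of the hepatocyte markers there were 0.420 Hamp reads in control replicate 1 and 0.400 in knockout replicate 1, compared with 0 Hamp reads beside 862 marker reads in knockout replicate 2 and 0 beside 6 in control replicate 2. The part of hepatocyte RNA in these heart values was not tested.

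Of the 8 other genes of hepcidin control, 6 passed the filter and limma, edgeR and DESeq2 called 0, with 0 at an unadjusted limma p of 0.05. Hjv, the BMP co-receptor hemojuvelin, which striated muscle also expresses, stood at 1301 and 1300.1 normalized counts in the controls and at 1167 and 1128 in the knockouts (log2 fold change -0.18, SE 0.09, limma p 0.0873, adjusted p 0.815). Hfe, which binds the transferrin receptor, had 296 and 260.0 in controls and 315 and 316 in knockouts. Bmp6, the ligand that raises hepcidin when iron is plentiful, had 145 and 172 in controls and 163 and 178 in knockouts. Of the 6, Hjv alone was lower and Hfe alone higher in both knockouts than in both controls. That is 16.7% in each direction, beside 17.5% of all genes lower and 18.1% higher. Bmp6 overlapped.

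Ireb2 encodes IRP2, an iron regulatory protein that binds the elements printed above and is degraded when iron is plentiful (chromosome 9, 54863789 to 54912530, plus strand). It stood at 593 and 653 normalized counts in the controls and at 608 and 611 in the knockouts. Both knockouts lay between the controls (log2 fold change -0.03, 95% interval -0.29 to 0.23). Aco1, the gene of IRP1, which serves as cytosolic aconitase when it holds an iron-sulfur cluster, stood at 418 and 590.1 in the controls and at 523 and 389 in the knockouts. Fbxl5, the iron-binding protein that marks IRP2 for degradation, had 553 and 462 in controls and 474 and 439 in knockouts. Both overlapped between the groups, and neither was called by limma, edgeR or DESeq2 or had an unadjusted limma p under 0.05. These are mRNA amounts, and the control of both regulatory proteins acts on the protein.

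**Figure D3:**
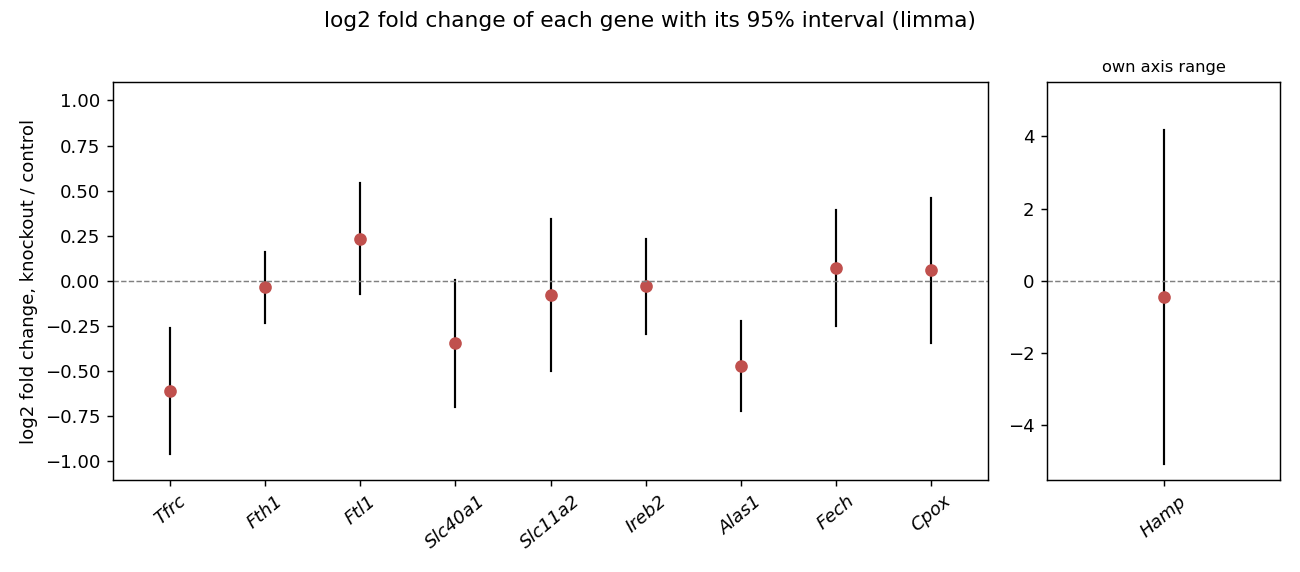
log2 fold change of knockouts over controls (points, limma on log2 of the normalized count plus 1) with its 95% interval (lines, 2 libraries a group) for the 10 genes, Hamp on an axis of its own. The intervals of Tfrc (-0.96 to -0.26) and Alas1 (-0.72 to -0.22) lie below 0, before any adjustment for the number of genes, and the others include 0.

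Alas1 encodes the 5-aminolevulinate synthase of all tissues, the first and rate-limiting enzyme of heme synthesis, which sits in the mitochondrial matrix (chromosome 9, 106233455 to 106248654, minus strand). It stood at 2672 and 2331 normalized counts in the controls and at 1865 and 1742 in the knockouts. Both knockouts lay below both controls, by more than the libraries of either group differed. The mean was 2501 ± 241 (SD, n = 2) in controls and 1803 ± 87.0 (SD, n = 2) in knockouts. The log2 fold change was -0.47 (SE 0.10, 95% interval -0.72 to -0.22), a fold of 0.722, with a limma p of 0.00349 before adjustment and 0.530 after. The adjusted p was 0.551 in edgeR and 0.0303 in DESeq2. Left out in turn, no library took the log2 fold change outside -0.57 to -0.37.

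Cpox encodes coproporphyrinogen oxidase, a later enzyme, which sits between the mitochondrial membranes (chromosome 16, 58670292 to 58717636, plus strand). It stood at 296 and 379 normalized counts in the controls and at 376 and 324 in the knockouts. Both knockouts lay within the controls' range (log2 fold change 0.06, 95% interval -0.34 to 0.46).

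Fech encodes ferrochelatase, which inserts iron into the ring in the last step (chromosome 18, 64452914 to 64490251, minus strand). It stood at 899 and 1139.7 normalized counts in the controls and at 1054 and 1076 in the knockouts. Both knockouts again lay between the controls (log2 fold change 0.07, 95% interval -0.25 to 0.40).

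The 6 other enzymes of the pathway all passed the filter, and limma, edgeR and DESeq2 called 0, with 0 at an unadjusted limma p of 0.05. Of the 8 genes of the pathway plotted here, Alas1 alone had an unadjusted limma p under 0.05 (lower), beside 3.02% of all genes lower. Urod, uroporphyrinogen decarboxylase, had 309.8 and 273 in controls and 309 and 321 in knockouts.

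**Figure D4:**
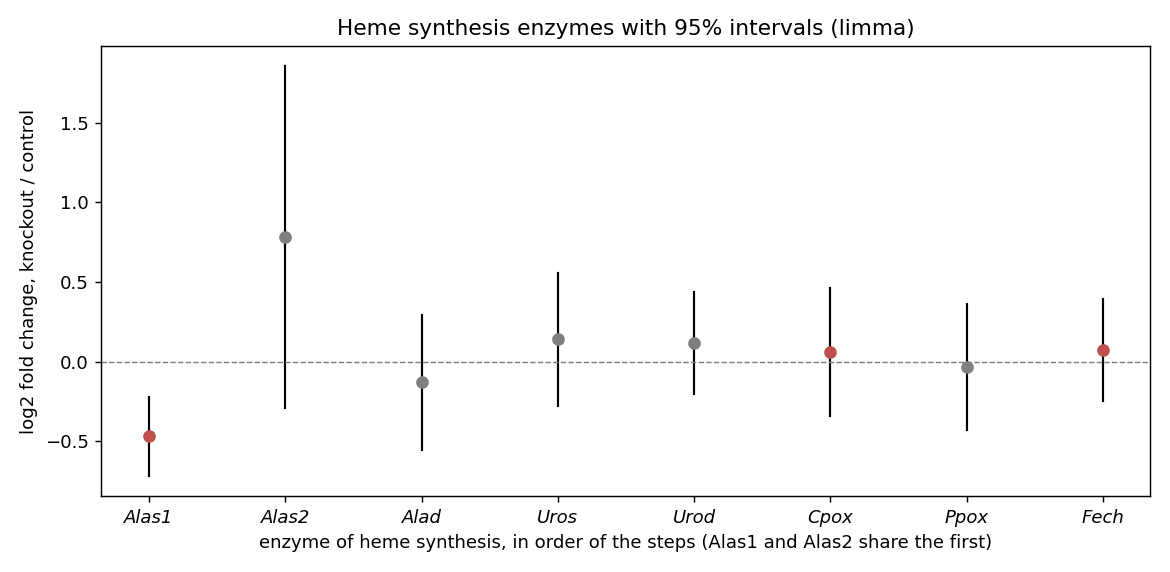
log2 fold change of knockouts over controls (points, limma) with its 95% interval (lines) for 8 enzymes of heme synthesis in the order of their steps, red for the genes described in full and grey for the others. Alas1 (-0.47) lies below 0 with its whole interval, and the intervals of the other 7 include 0.

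Alas2, the erythroid counterpart of Alas1, stood at 362 and 230.4 normalized counts in the controls and at 309.7 and 796 in the knockouts. Knockout replicate 2 stood apart, and the log2 fold change of 0.78 (SE 0.44, limma adjusted p 0.837) was 0.10 without it. Haemoglobin mRNA was high in the same library: Hbb-bs stood at 8837 and 6605 in the controls and at 6949 and 19142 in the knockouts. The 7 erythroid markers with a row in the table summed to 14232 to 18617 in controls and 14630 to 41139 in knockouts. Haemoglobin genes held most of each sum. Slc4a1 alone of the 7 was not highest in knockout replicate 2, at 25.4 and 57.9 in controls and 13.2 and 48.2 in knockouts. Another of the 7, Epb42, was at 0 in knockout replicate 1. Per 100 reads of these markers, Alas2 had 1.94 and 1.62 reads in controls and 2.12 and 1.93 in knockouts. Slc25a37, mitoferrin 1, the mitochondrial iron importer of red cell precursors, stood at 307 and 226 in controls and 277 and 425 in knockouts (log2 fold change 0.38, and 0.07 without knockout replicate 2). Per 100 reads of the erythroid markers it had 1.65 and 1.59 reads in controls and 1.89 and 1.03 in knockouts, the lowest being in knockout replicate 2. The part of erythroid RNA in the Alas2 and Slc25a37 values was not tested.

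**Figure D5:**
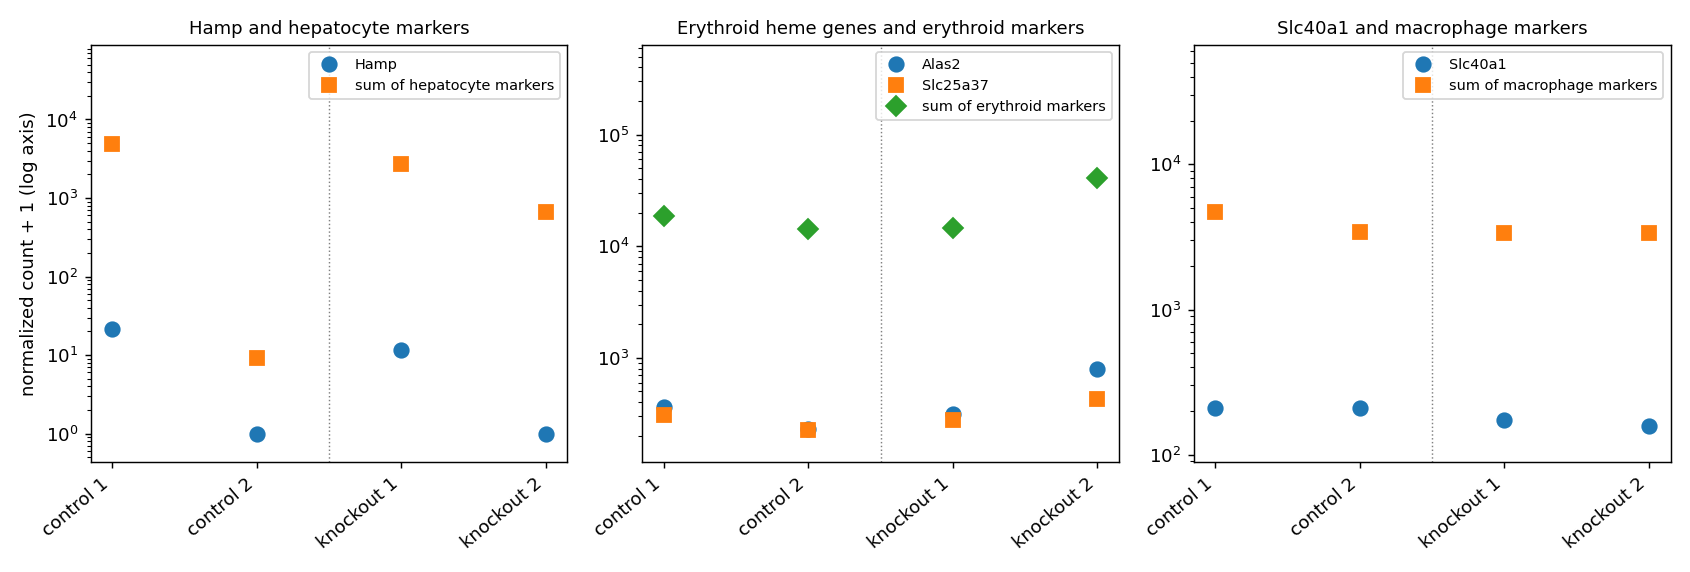
Normalized count plus 1 (log axis) in the 4 libraries for Hamp with the summed hepatocyte markers (left), Alas2 and Slc25a37 with the summed erythroid markers (middle) and Slc40a1 with the summed macrophage markers (right); the dotted line parts controls from knockouts. Hamp is at 0 in the libraries with the lowest hepatocyte sums (8.08 and 659), and Alas2 peaks with the erythroid sum in knockout replicate 2. Slc40a1 is lower in both knockouts than in both controls, and so is the macrophage sum (3434 or more in controls, 3365 or less in knockouts).

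Of the 9 genes of mitochondrial iron import and heme intermediates, all passed the filter, and limma, edgeR and DESeq2 called 0. At an unadjusted limma p under 0.05 there was 1 gene (higher), beside 3.08% of all genes higher. That gene was Slc25a39, a carrier of the inner mitochondrial membrane needed for mitochondrial glutathione, which stood at 598 and 595 normalized counts in the controls and at 867 and 797 in the knockouts. Both knockouts lay far above the nearly equal controls (log2 fold change 0.48, SE 0.10, limma p 0.00336, adjusted p 0.530). The adjusted p was 0.434 in edgeR and 0.259 in DESeq2. Abcb6, a porphyrin transporter, stood at 205 and 210.2 in the controls and at 297 and 223 in the knockouts (log2 fold change 0.31, SE 0.18).

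Of the 12 genes of heme transport and breakdown, all passed the filter and limma, edgeR and DESeq2 called 0, with 0 at an unadjusted limma p of 0.05. Hmox1, the inducible heme oxygenase, stood at 51.8 and 36.4 normalized counts in the controls and at 59.3 and 58.9 in the knockouts (log2 fold change 0.44, SE 0.28). Slc48a1, a heme transporter of lysosomes, had 453 and 383 in controls and 451 and 526 in knockouts (log2 fold change 0.23, SE 0.14). Hpx and Hp encode plasma proteins from the liver that bind heme and haemoglobin. Like the summed hepatocyte markers, both were lowest in control replicate 2 and next lowest in knockout replicate 2. Hpx stood at 143 and 2.69 in controls and 152 and 16.8 in knockouts. It was highest in knockout replicate 1, while the hepatocyte sum was highest in control replicate 1.

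Over the 45 of the 54 other iron and heme genes that passed the filter, limma called 0, edgeR 0 and DESeq2 0, with 1 gene lower (Steap3) and 1 higher (Slc25a39) at an unadjusted limma p of 0.05, beside 3.02% and 3.08% of all genes. The groups did not overlap in 5 genes with the knockouts lower (11.1%, beside 17.5% of all genes) and in 8 with the knockouts higher (17.8%, beside 18.1%). The median log2 fold change of the 45 was 0.07.

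Levels can be set against each other only per length of transcript, so control means were divided by the length of each gene's longest principal transcript (normalized counts per kilobase, ± SD, n = 2). Fth1 was highest at 2189.6 ± 11.2, followed by Ftl1 at 1590.3 ± 219.8. Alas1 (736 ± 71.0) and Tfrc (735 ± 151) followed and did not differ beyond their spread. Fech stood at 155 ± 25.9, and Cpox (109 ± 18.8) and Ireb2 (108 ± 7.37) were next and did not differ beyond theirs. Slc11a2 (78.3 ± 14.4) and Slc40a1 (62.2 ± 0.213) came after them, and Hamp was lowest at 25.0 ± 35.4. In the knockouts Alas1 was at 531 ± 25.6 and Tfrc at 476 ± 11.1 on the same scale, and the order of the 10 was the same as in the controls. The choice of transcript sets this scale, and other choices were not tried.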

How the data were processed

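Total RNA of whole mouse hearts was sequenced in strand-specific TruSeq libraries. The authors aligned reads with STAR 2.7.3a to GRCm38.p6, quantified them with Salmon 1.1.0 and GENCODE vM24, summarised them per gene with tximport and deposited a signal, the normalized count of DESeq2 1.26.0. All values (100% within 0.001) were whole multiples of 1 read, so reads were recovered. The deposited table of the authors' own comparison (log2 fold changes, standard errors and p-values) was not used. The 10 genes, the other iron and heme genes and the marker lists were chosen with earlier results of these data known.

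Groups followed the labels (2 controls, 2 knockouts), with nothing beyond mouse numbers to show separate litters. The p-values therefore rest on the spread between these mice, which limma moderates with the spread of all genes tested. Genes with at least 10 in at least 2 libraries (14522) were fitted with limma 3.58.1 (R 4.3.3) with a variance trend, after adding 1 and taking log2, in two-sided tests with Benjamini-Hochberg adjustment over all of them at 0.05. Fold changes are on that scale and understate low genes. Limits from a count of 0 (3 reads) cover counting error only. Ratios within a library were compared by exact permutation (scipy 1.17.1). Of the other iron and heme genes, any called gene and the 3 with the smallest limma p in each role were to be named; Trf, Hpx, Hp, and Ftmt were named after their values were seen. Positions, lengths and UTRs came from GENCODE vM21 on GRCm38. The marker Ahsp was not analysed here, and some genes of the lists are counted but not reported here. Alternatives were the pseudocount, the filter, the scaling, a replicate block, limma without trend or with robust variance, edgeR 4.0.16 and DESeq2 1.42.0 on recovered reads, each library left out, and ferritin copies added to their parents. The fits were tested on simulated data. Plots were made in matplotlib 3.10.9 (Python 3.11.15).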

Additional observations from a re-analysis of the deposited data

Results flagged for a closer look

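For mouse 585H the title says wild type and the genotype field says knockout, and for mouse 586H the reverse, so both were left out of every comparison. Each value here was picked because it lay above both controls in a library outside the comparisons. In mouse 585H, Fth1 (the heavy ferritin chain) stood at 3669 normalized counts, Ftl1 (the light chain) at 1808, Slc40a1 (ferroportin) at 232 and Cpox at 397. In mouse 586H, Fth1 stood at 3286, barely above the higher control at 3283, and Slc11a2 (DMT1) at 298.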

How the results depend on the processing

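Among the 10 genes, limma called 0 under every alternative run and edgeR called 0, while DESeq2 on the recovered reads called 2 (Tfrc and Alas1); the cause was not tested. No setting called any other iron or heme gene. With the replicate number as a replicate block, 0 genes of either list were called, and the log2 differences of the ratios, -0.27 and -0.67, cannot change under it; deviations of same-numbered libraries correlated at 0.31 across genes, and the labels do not say that numbers pair mice. Calls over all genes, 17 in limma, came to 30 with the block, 62 in DESeq2, 6 without the variance trend and 6 to 33 with 1 library left out. With 1 library left out (a lone library is then assumed to vary like the others), 0 genes of either list were called. The log2 fold changes then spanned -0.82 to -0.40 for Tfrc, -0.57 to -0.37 for Alas1, -0.41 to -0.28 for Slc40a1 and 0.09 to 0.37 for Ftl1. They changed sign for Fth1 (-0.074 to 0.0029), Hamp (-2.65 to 1.34), Slc11a2 (-0.27 to 0.11), Ireb2 (-0.10 to 0.039), Fech (-0.10 to 0.24), Cpox (-0.12 to 0.24), Pcbp1 (-0.044 to 0.27), Pcbp2 (-0.22 to 0.013), Aco1 (-0.39 to 0.11), Heph (-0.14 to 0.24), Cp (-0.32 to 0.11) and Bmp6 (-0.016 to 0.24). The ratio of Fth1 to Ftl1 spanned -0.42 to -0.12 and that of Tfrc to ferritin -0.83 to -0.50 (log2, knockouts minus controls). Adding ferritin copies gave -0.27 and -0.67. Low reads limit Hamp most.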

Other observations

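In the hearts of mice 585H and 586H, left in no group here because their labels contradict each other, selected genes took the following values. Tfrc stood at 1736 normalized counts in mouse 585H and at 3145 in mouse 586H. Alas1 stood at 1424 and 2630.0, and Slc25a39 at 842 and 655. Slc40a1, at 232 and 155, was higher in mouse 585H than in mouse 586H, whereas Tfrc and Alas1 were lower in mouse 585H. Per 100 reads of the macrophage markers, Slc40a1 had 7.79 reads in mouse 585H and 4.53 in mouse 586H. Ssbp1 itself stood at 152 in mouse 585H and at 211 in mouse 586H. Hamp had 7 reads in mouse 585H and 1 in mouse 586H, that is, 0.456 and 0.115 per 100 reads of the hepatocyte markers, beside 797 and 704 normalized counts of Alb. Alas2 had 1.89 and 2.15 reads per 100 reads of the erythroid markers. Fech, the last enzyme of the pathway, stood at 1098 in both mice, and Ireb2 at 612 and 615.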
